A study of Arabidopsis thaliana with 9 samples.

Results

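PP2CA (AT3G11410) and ABI1 (AT4G26080) are clade A type 2C protein phosphatases of Arabidopsis thaliana, and they were followed here as preys of a yeast two-hybrid screen. They were taken by gene identifier, and they are 2 of the 10224 genes in the deposited table. Both reached the filter for testing, which 3811 genes passed. Of the 9 clade A phosphatases of Arabidopsis, 3 were in the table. The third, HAI3, had 2 reads in total and did not reach the filter. The other 6 were not analysed here.

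The screen paired a cDNA library of Arabidopsis with 3 baits, PKS5, SOS2 and SCAB1. PKS5 and SOS2 are related protein kinases of the family regulated by calcineurin B-like calcium sensors, and SCAB1 is a plant-specific actin-binding protein of guard cells. Each bait had 3 libraries, 1 at each of 0, 2 and 4 h of recovery, so the spread within a bait also holds any effect of recovery time. All libraries came from yeast selected without tryptophan, leucine and histidine in the presence of 1 mM 3-AT, an inhibitor of histidine synthesis. More than 3000 colonies per sample were pooled, prey inserts were amplified, and fragments carrying 29 bp of vector were sequenced. There was no library of unselected prey and no empty-bait library among those analysed here, so each bait is set against the other baits and not against a background of its own. Nothing in the labels says that the 3 libraries of a bait came from separate cultures, and the p-values measure the spread between these libraries only.

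Abscisic acid is the plant hormone of drought and seed dormancy. Without it, clade A phosphatases remove the activating phosphate from SnRK2 kinases and keep them off. When the hormone binds its PYR/PYL receptors, the receptors close over the phosphatases, the kinases become active, and they phosphorylate transcription factors such as ABF1 and ion channels of guard cells. ABI1 acts widely in the plant, and PP2CA is best known from seed germination and from guard cells. Kinases of the PKS5 and SOS2 family carry a motif by which some members bind ABI1 or its close relative ABI2.

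The libraries held 1640114 to 3288437 reads, with a median of 2110556. The most abundant gene of a library took 7.70 to 32.0% of its reads. Values are CPM, the reads of a gene over those of its library times 1000000. The reads of a gene are PCR copies of prey inserts read from the vector junction, without division by gene length, and say nothing of how strongly a prey binds. The authors also gave how many of a gene's reads were unique, and these distinct reads could be used in 8 of the 9 libraries. In those, 1 distinct read stood for 45.9 to 137 reads. The distinct-read column of SCAB1 at 4 h equals that of SCAB1 at 2 h in all 10224 cells and was left out. The smallest number taken here as a level, 3 reads, was worth 0.912 to 1.83 CPM.

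By reads, PP2CA was recovered above all with PKS5, but its distinct reads did not separate the baits. Its reads numbered 235, 308 and 298 in the PKS5 libraries at 0, 2 and 4 h, against 34, 21 and 9 in the SOS2 libraries and 15, 11 and 5 in the SCAB1 libraries. As levels these were 111, 102 and 143 CPM with PKS5, against 15.5, 10.8 and 2.74 CPM with SOS2 and 7.49, 4.81 and 3.05 CPM with SCAB1. Each PKS5 library was higher than each of the other 6, and the lowest PKS5 library held 6.57 times the level of the highest other library. The SOS2 and SCAB1 libraries overlapped, and the lowest library of all was SOS2 at 4 h. PP2CA had 5, 2 and 2 distinct reads with PKS5, against 2, 4 and 1 with SOS2 and 3 and 1 with SCAB1, which overlapped.

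**Figure D1:**
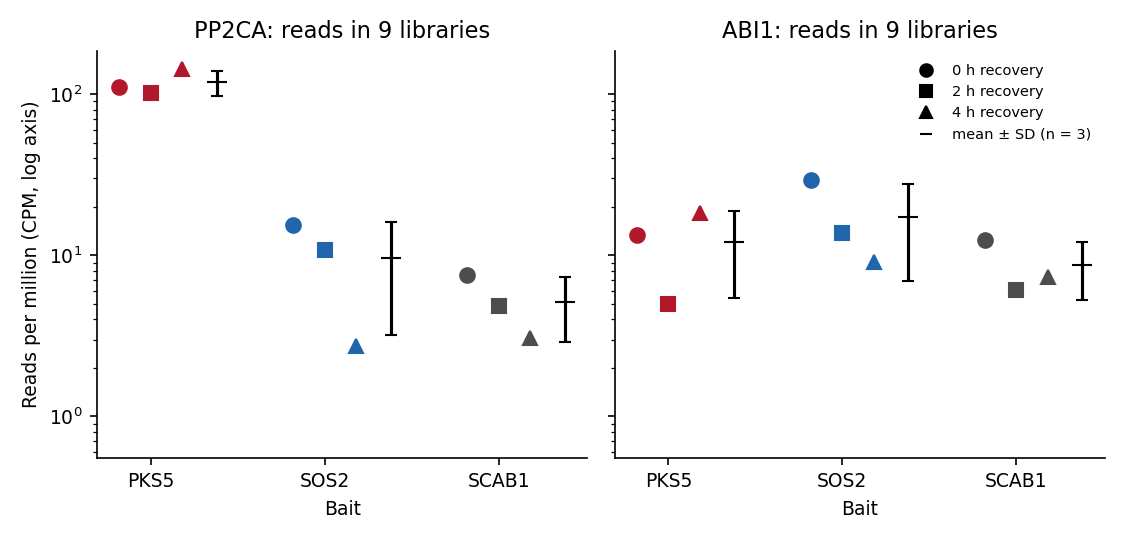
Level (CPM, log axis) of PP2CA on the left and ABI1 on the right in the PKS5, SOS2 and SCAB1 libraries. Symbols give the recovery time, and bars give the mean ± SD of 3 libraries. The 3 PKS5 libraries of PP2CA sit between 102 and 143 CPM, above the other 6, and the libraries of ABI1 overlap between baits.

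In the limma-voom test of reads over all 3811 genes, PP2CA was higher with PKS5 than with SOS2 by 4.31 on the log2 scale (SE 0.47, adjusted p = 7.56e-08), a fold of 19.9 with a 95% interval of 10.2 to 38.8. It was higher with PKS5 than with SCAB1 by 4.54 (SE 0.53, adjusted p = 3.09e-07 in limma-voom), a fold of 23.2 with an interval of 10.9 to 49.6. The same test called 31.9% of the genes tested between PKS5 and SOS2 and 18.4% between PKS5 and SCAB1, with 7.16 and 6.25% called higher with PKS5. These comparisons share the PKS5 libraries. PKS5 against the mean of both other baits called 27.7% of the genes in either direction and 5.98% as higher with PKS5, and PP2CA was among the 228 higher ones, with a fold of 21.5. On distinct reads the same comparison gave a fold of 1.64, and the call was lost (adjusted p = 0.288 in limma-voom). PP2CA reached the filter for testing in 4 of the 6 SOS2 and SCAB1 libraries, and so would have been tested without the PKS5 libraries. By reads it stood at place 60 in that comparison by the size of the difference among all genes tested. Complete separation of the 3 PKS5 libraries above the other 6, on the CPM scale, was met by 119 genes, which is 3.12%. An exact two-sided permutation test of log2(CPM + 0.5) over the 9 libraries gave a difference of 4.14 with p = 0.0238, the smallest that 3 libraries against 6 can give.

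PKS5 had the highest level of PP2CA at every recovery time. At 0 h its level with PKS5 was 7.19 times that with SOS2 and 14.9 times that with SCAB1. At 2 h these ratios were 9.46 and 21.2, and at 4 h they were 52.1 and 46.8. The ratios at 4 h rest on 9 reads with SOS2 and 5 reads with SCAB1. Between SOS2 and SCAB1 the limma-voom difference of PP2CA was 0.22 on the log2 scale (SE 0.55, 95% interval -0.91 to 1.36, adjusted p = 0.79), where 40.6% of the genes tested were called. The interval spans folds of 0.532 to 2.57, so the levels of PP2CA with SOS2 and with SCAB1 were neither shown to differ nor shown to be equal.

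Within its library PP2CA stood higher among the preys by reads with PKS5 than with the other baits. It took place 318 of 7344 genes with a read in PKS5 at 0 h, place 180 of 5879 at 2 h and place 266 of 6868 at 4 h. That put it in the top 3.06 to 4.33% of the genes recovered with PKS5. With SOS2 it took places 2752 of 8594, 2121 of 7479 and 2967 of 6845, and with SCAB1 places 2779 of 7321, 1891 of 5753 and 2494 of 5450. With SOS2 it was thus in the top 28.4 to 43.3% and with SCAB1 in the top 32.9 to 45.8%, above the median gene recovered.

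ABI1 showed no bait that stood apart. It had 28, 15 and 38 reads with PKS5, against 64, 27 and 30 reads with SOS2 and 25, 14 and 12 reads with SCAB1. As levels these were 13.3, 4.96 and 18.2 CPM with PKS5, against 29.1, 13.8 and 9.12 CPM with SOS2 and 12.5, 6.12 and 7.32 CPM with SCAB1. All 3 baits overlapped, the highest library being SOS2 at 0 h and the lowest PKS5 at 2 h. The means were 12.1 ± 6.69 CPM with PKS5, 17.4 ± 10.5 CPM with SOS2 and 8.64 ± 3.39 CPM with SCAB1 (SD, n = 3 libraries each).

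No comparison between baits called ABI1. Against the mean of SOS2 and SCAB1 its log2 difference with PKS5 was 0.05 (SE 0.33, adjusted p = 0.945 in limma-voom), and the 95% interval allows a fold of 0.643 to 1.67. Between PKS5 and SOS2 the difference was -0.18 (SE 0.37, adjusted p = 0.79), and between PKS5 and SCAB1 it was 0.28 (SE 0.40, adjusted p = 0.746). Between SOS2 and SCAB1, the pair of baits with the widest gap in mean CPM, it was 0.45 (SE 0.39, 95% interval -0.36 to 1.27, adjusted p = 0.388). The exact two-sided permutation test of log2(CPM + 0.5) gave -0.08 with p = 0.905 for the 3 PKS5 libraries against the other 6. The upper end of the interval for PKS5 lies far under the smallest fold that the interval of PP2CA allows, which is 11.8.

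The levels of ABI1 followed a property of the libraries. The scaling factor of a library, estimated by trimmed means of log ratios (TMM) over all genes, ran from 0.438 in PKS5 at 2 h to 2.402 in SOS2 at 0 h, the same libraries that held the lowest and the highest level of ABI1. Divided by its library's factor, the level of ABI1 was 9.56, 11.3 and 12.7 CPM with PKS5, against 12.1, 12.8 and 12.8 CPM with SOS2 and 7.26, 10.8 and 11.4 CPM with SCAB1. After this scaling the libraries of ABI1 lay within 1.77-fold of each other, against 5.88-fold before it. Across the 9 libraries the log2 level of ABI1 had a Pearson correlation of 0.95 with the log2 factor, where the median gene tested had 0.74 and 5.09% of the genes had as much as ABI1 or more. The factor is computed from the same libraries, so these correlations are a description.

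Over the 9 libraries PP2CA did not follow the factor in that way, with a correlation of 0.19. That correlation also holds the difference between baits. Within PKS5 and within SOS2 the levels of PP2CA ranked as the factors did. Within SCAB1 the highest level went with the highest factor, but the other libraries ranked the other way. After scaling PP2CA had 80.2, 232 and 99.5 CPM with PKS5, against 6.45, 9.99 and 3.85 CPM with SOS2 and 4.36, 8.52 and 4.73 CPM with SCAB1. The scaling set the PKS5 library at 2 h above the other 2 PKS5 libraries and left all 3 above the other 6.

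Since both phosphatases were counted in the same libraries, the share of PP2CA among their joint reads does not depend on depth or on scaling. PP2CA made up 89.4, 95.4 and 88.7% of the joint reads with PKS5 at 0, 2 and 4 h, against 34.7, 43.8 and 23.1% with SOS2 and 37.5, 44.0 and 29.4% with SCAB1. With PKS5 the phosphatase reads were thus mostly those of PP2CA, and with both other baits they were mostly those of ABI1. The lowest lower bound among the PKS5 libraries was 84.9%, and the highest upper bound among the other 6 was 62.9% (Wilson 95% intervals, which cover counting error only and take reads as independent). The mean share was 91.1 ± 3.67% with PKS5, 33.8 ± 10.4% with SOS2 and 37.0 ± 7.31% with SCAB1 (SD, n = 3 libraries each). The difference of 55.7 percentage points between the PKS5 libraries and the other 6 had p = 0.0238 in an exact two-sided permutation test, the smallest possible. This measure was added after the values had been seen.

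**Figure D2:**
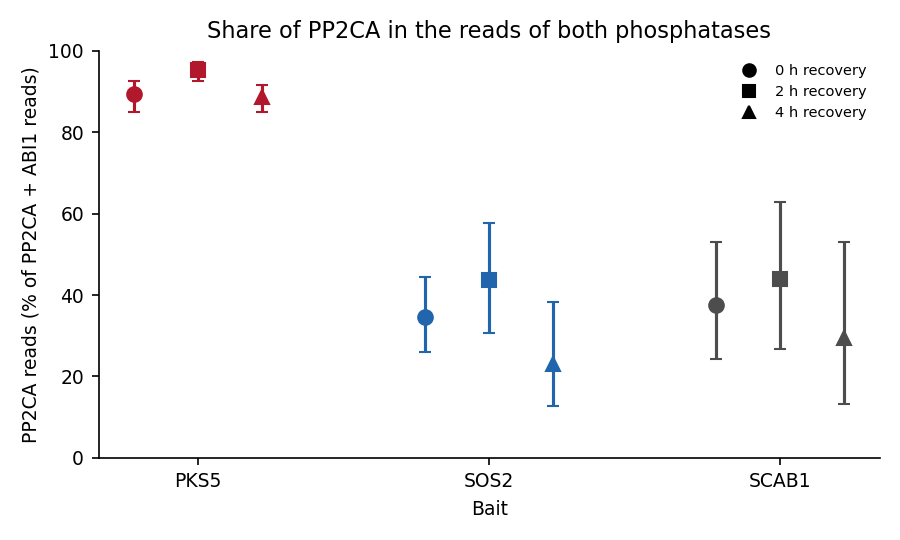
Share of PP2CA, in percent, in the joint reads of PP2CA and ABI1 in each library, by bait and recovery time (symbols), with Wilson 95% intervals. The PKS5 libraries lie between 88.7 and 95.4% and the SOS2 and SCAB1 libraries between 23.1 and 44.0%.

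The distinct reads gave a smaller difference for PP2CA than the reads did. In the PKS5 libraries each distinct read of PP2CA stood for 47.0, 154 and 149 reads, against 17, 5.25 and 9 with SOS2 and 5 and 11 with SCAB1. Over the whole library a distinct read stood for 67.4, 137 and 77.3 reads in the same PKS5 libraries.

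Relative to the total of distinct reads, PP2CA had 108 ± 45.5 distinct reads per 1000000 with PKS5 (SD, n = 3), against 54.2 ± 35.3 with SOS2 (n = 3) and 62.5 ± 25.8 with SCAB1 (n = 2). The limma-voom difference on distinct reads in 8 libraries was 0.72 on the log2 scale for PKS5 against the mean of the others (SE 0.37, 95% interval -0.06 to 1.49, adjusted p = 0.288), a fold of 1.64 with an interval of 0.959 to 2.81. That interval lies wholly under the interval of 11.8 to 39.0 that the reads gave. PP2CA had only 1 to 5 distinct reads per library, which leaves little room for a fold of that size. The test on distinct reads called 8.95% of the genes. The share of PP2CA among the joint distinct reads was 55.6, 66.7 and 40.0% with PKS5, against 28.6, 66.7 and 20% with SOS2 and 42.9 and 33.3% with SCAB1, and these overlapped (difference 15.8 percentage points, exact two-sided permutation p = 0.286).

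In the PKS5 libraries PP2CA had few distinct reads for its read number. In each PKS5 library it was set beside the genes with between 2/3 and 1.5 times its reads, which numbered 217, 93 and 178. The median gene of these had 17, 14 and 14 distinct reads at 0, 2 and 4 h, where PP2CA had 5, 2 and 2. As many distinct reads as PP2CA, or fewer, were found in 11.1, 6.45 and 2.25% of these genes. With the other baits PP2CA lay at the median of such genes or a little under it. It had 2, 4 and 1 distinct reads against 3, 4 and 2 with SOS2, and 3 and 1 against 3 and 2 with SCAB1. As many or fewer were found in 30.7, 57.3 and 25.9% of such genes with SOS2 and in 65.9 and 26.5% with SCAB1. Over the 3 PKS5 libraries PP2CA had 93.4 reads per distinct read, against a median of 35.7 for the 228 genes called higher with PKS5. Of those 228 genes, 93 were also called higher on distinct reads, which is 40.8%, and PP2CA was not one of them. No source used here states what makes a read distinct, and the part of the few distinct reads in the read level of PP2CA was not tested.

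**Figure D3:**
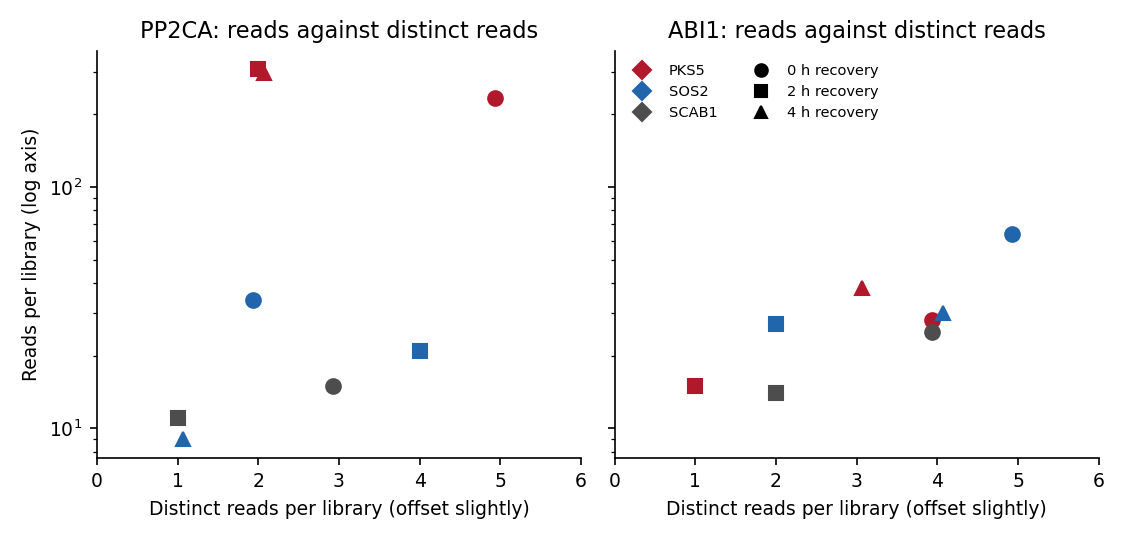
Reads (log axis) against distinct reads of PP2CA on the left and ABI1 on the right, 1 point per library, coloured by bait with a symbol for recovery time. Points are offset slightly along the horizontal axis, and SCAB1 at 4 h is left out. The PKS5 libraries of PP2CA hold 235 to 308 reads on 2 to 5 distinct reads, and the points of ABI1 mix the baits.

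No comparison between baits called ABI1 on distinct reads either. It had 4, 1 and 3 distinct reads with PKS5, against 5, 2 and 4 with SOS2 and 4 and 2 with SCAB1. The median gene of like read number had 4, 3 and 4 with PKS5, against 5, 5 and 4 with SOS2 and 4 and 3 with SCAB1. ABI1 equalled that median in 4 of the 8 libraries and lay under it in the other 4, which were all 3 libraries at 2 h and PKS5 at 4 h. The limma-voom difference on distinct reads was -0.04 (95% interval -0.79 to 0.71, adjusted p = 0.971) for PKS5 against the mean of the others.

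**Figure D4:**
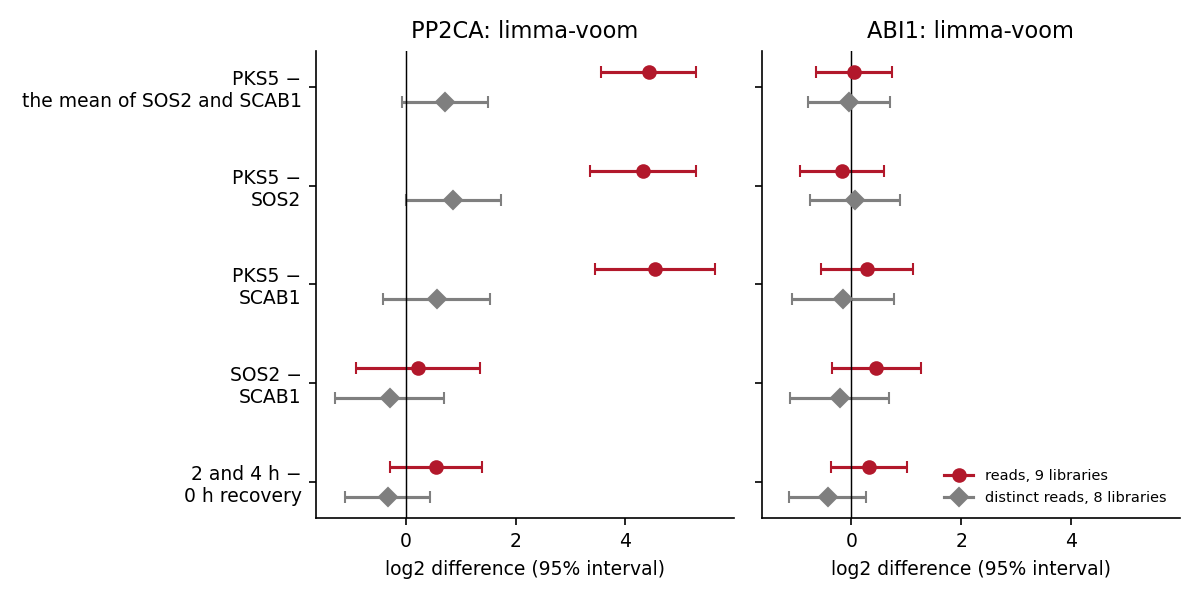
limma-voom log2 differences of PP2CA on the left and ABI1 on the right with 95% intervals, for PKS5 against the others, SOS2 against SCAB1, and 2 and 4 h against 0 h of recovery. Circles are reads in 9 libraries and diamonds are distinct reads in 8. PP2CA lies between 4.31 and 4.54 on reads in the PKS5 comparisons and between 0.57 and 0.86 on distinct reads, and each interval of ABI1 holds 0.

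Neither phosphatase was called over recovery time. PP2CA had a log2 difference of 0.55 at 2 and 4 h against 0 h (SE 0.41, 95% interval -0.29 to 1.38, adjusted p = 0.638), and ABI1 had 0.32 (SE 0.34, adjusted p = 0.767), in limma-voom with bait as a term. The test called 0 of 3811 genes, or 0%, with 489 at an unadjusted p under 0.05, and limma-trend called 0 as well. In CPM, PP2CA was lower at 2 and 4 h than at 0 h with SOS2 and with SCAB1 and lay on both sides of its 0 h level with PKS5. With library size alone as the scale, the difference of PP2CA was -0.60 and that of ABI1 was -0.95, while the median of all genes tested lay at -1.21, so the direction over recovery depends on the scale. A term for a recovery effect of PKS5 unlike that of the other baits, also added after the values had been seen, gave 0.66 for PP2CA (SE 0.83, adjusted p = 0.979) and called 0 of 3811 genes, with 174 at an unadjusted p under 0.05.

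Among preys of the same pathway, the receptors PYL5 and PYL1 were lower with PKS5 than with each of the other baits by reads, and neither was called on distinct reads. Of 14 PYR/PYL receptors, 7 were in the table and 6 were tested. Of these, 4 were lower and 0 higher with PKS5 than with the mean of SOS2 and SCAB1, where 21.7% of all genes tested were lower. Against SOS2 alone 3 of the 6 were lower, where 24.8% of all genes were, and against SCAB1 alone 4 were, where 12.1% were. The median log2 difference of the 6 to the mean was -2.19, against -0.14 over all genes tested. These counts and medians are descriptions of the receptors that passed the filter. PYL8 passed the filter only through SCAB1, so its call is no result. It is among the 4 counted as lower against the mean and the 4 against SCAB1. PYL6 reached the filter in 0 of the 3 PKS5 libraries.

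The receptor counts depended on the scale and on the kind of read, in settings chosen for the listed genes after seeing the data. With relative log expression factors 4 of the 6 were lower than with the mean, where 19.2% of all genes tested were. With library size alone 3 were, against 14.0% of all genes, and without genes above 5% of a library 3 were, against 9.16%. PYL6 was the one whose call was lost in both. Each of these counts holds PYL8, whose call is no result, as it passed the filter only through SCAB1. On distinct reads 1 of the 6, again PYL8, was lower, where 5.38% of all genes were, and against SOS2 alone 0 were.

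PYL5 and PYL1 were the most frequent receptors. PYL5 had 200.5 ± 77.6 CPM with PKS5, against 1965 ± 162 CPM with SOS2 and 1271 ± 207 CPM with SCAB1 (log2 difference to the mean of both -3.01, SE 0.43, adjusted p = 6.77e-06 in limma-voom). PYL1 had 87.7 ± 36.7 CPM with PKS5, against 436 ± 58.4 CPM with SOS2 and 717 ± 111 CPM with SCAB1 (-2.73, SE 0.40, adjusted p = 1.12e-05). Neither overlapped between PKS5 and the other baits, but the share of all genes that separated downward in this way was not counted. On distinct reads the differences were -0.35 for PYL5 and -0.52 for PYL1 (adjusted p = 0.245 and 0.338 in limma-voom). PYL6 was rarer, at 3.36 ± 1.22 CPM with PKS5, against 9.17 ± 3.10 CPM with SOS2 and 14.05 ± 2.19 CPM with SCAB1 (-1.65, SE 0.48, adjusted p = 0.0112).

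PYL8, whose RefSeq symbol is RCAR3, was recovered with SCAB1. It had 0 reads in each PKS5 library and 1, 1 and 0 reads with SOS2, against 152, 133 and 66 reads with SCAB1. Its mean of 58.1 CPM with SCAB1 was at least 45.3-fold higher than with PKS5, set at 3 reads per library. PYL8 passed the filter only through SCAB1, so these levels are given with no test. PYR1 and PYL4 were not called for PKS5 against the mean of the others (adjusted p = 0.0532 and 0.852 in limma-voom). PYR1 had 33.2 ± 18.1 CPM with PKS5, against 107 ± 42.2 CPM with SOS2 and 40.5 ± 28.1 CPM with SCAB1, and was lower with PKS5 than with SOS2 (-1.45, SE 0.42, adjusted p = 0.00826). That call was lost with library size alone (adjusted p = 0.0573 in limma-voom), without genes above 5% of a library (0.272) and on distinct reads (0.299).

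The SnRK2 kinases, which clade A phosphatases dephosphorylate, were rare preys. Of 10, 9 were in the table and 2 were tested, and neither was called for PKS5 against the mean of the others. SNRK2.4 had 4.93 ± 3.43 CPM with PKS5, against 10.03 ± 11.04 CPM with SOS2 and 4.15 ± 4.63 CPM with SCAB1. SNRK2.10 had 4.66 ± 3.73 CPM with PKS5, against 14.3 ± 6.17 CPM with SOS2 and 2.99 ± 1.46 CPM with SCAB1. It passed the filter only with the SOS2 libraries, where it was highest, so its levels are a description with no test. SNRK2.6, the guard cell kinase also called OST1, reached the highest level of the 7 that were not tested, 10.02 CPM in SOS2 at 0 h.

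Of the 7 transcription factors of the pathway, 4 were in the table and 1 was tested. ABF1, which binds abscisic acid response elements, had 35.8 ± 18.2 CPM with PKS5, against 167 ± 101 CPM with SOS2 and 31.9 ± 18.4 CPM with SCAB1. It was lower with PKS5 than with SOS2 (-1.93, SE 0.50, adjusted p = 0.00369) and higher with SOS2 than with SCAB1 (1.95, SE 0.51, adjusted p = 0.00325), where 25.5% of all genes were higher with SOS2, calls that distinct reads did not give (adjusted p = 0.992 and 0.893). The first was also lost without genes above 5% of a library (adjusted p = 0.0542). ABF4 was the most frequent of the other 3, with 2.05 CPM at most.

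Of 7 substrates and channels linked to these phosphatases, 3 were in the table and 2 were tested, and each was highest with a bait other than PKS5. AKT1, a potassium uptake channel of roots, had 12.0 ± 6.93 CPM with PKS5 and 20.9 ± 12.7 CPM with SOS2, against 3737 ± 615 CPM with SCAB1. It was lower with PKS5 than with the mean of the others (log2 difference -4.61, SE 0.38, adjusted p = 1.92e-09 in limma-voom), also on distinct reads (-0.79, adjusted p = 0.0372). That difference lay with SCAB1, against which AKT1 had -8.71 (adjusted p = 3.55e-11 in limma-voom). Against SOS2 alone AKT1 was not called (-0.51, adjusted p = 0.391), and on distinct reads that sign turned (0.59, adjusted p = 0.197). KAT1, a potassium channel of guard cells, had 1.17 ± 0.657 CPM with PKS5, against 44.1 ± 13.4 CPM with SOS2 and 0 reads in each SCAB1 library. Its level with SOS2 was at least 28.5-fold higher than with SCAB1, set at 3 reads per library. KAT1 passed the filter only through SOS2, so these levels too are given with no test. SWI3B, a chromatin remodelling subunit, was not tested and had 3.50 CPM at most.

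Of 6 ubiquitin ligases that act on clade A phosphatases, 4 were in the table and 1, AT1G67800, was tested. It had 19.2 ± 7.90 CPM with PKS5, against 19.0 ± 16.6 CPM with SOS2 and 17.4 ± 10.9 CPM with SCAB1, and no comparison called it. The most frequent of the other 3 was BPM3, with 1.02 CPM at most.

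Other type 2C phosphatases, outside clade A, were looked at as relatives, from a list that was not shown to be complete. Of 14, 4 were in the table and 3 were tested, and 0 were higher and 1, PP2C74, was lower with PKS5 than with the mean of the others, where 5.98% of all genes tested were higher and 21.7% lower. PP2C74 had 1.74 ± 1.66 CPM with PKS5 and 2.99 ± 1.32 CPM with SOS2, against 388 ± 88.4 CPM with SCAB1. It passed the filter only through SCAB1, so its call is no result, and on distinct reads it was not called against the mean (-1.15, adjusted p = 0.112 in limma-voom). Against SCAB1 alone distinct reads did call it (-2.21, adjusted p = 0.00364 in limma-voom), which is no result for the same reason. PIA1 had 5.62 ± 4.44 CPM with PKS5, against 8.97 ± 8.49 CPM with SOS2 and 8.98 ± 8.25 CPM with SCAB1, and was not called. PLL4 had 5.27 ± 3.89 CPM with PKS5, against 7.61 ± 6.88 CPM with SOS2 and 2.65 ± 2.05 CPM with SCAB1, and was not called. Of the 5 listed type 2C phosphatases tested in and outside clade A, PP2CA was thus the 1 called higher with PKS5 on reads. On distinct reads it was PLL4 that was higher with PKS5 (log2 difference 1.42, adjusted p = 0.0169 in limma-voom), where 3.57% of all genes were higher, while PP2CA had 0.72 (adjusted p = 0.288). PLL4 reached the level of the filter in only 1 library of each bait. On distinct reads it was called against SOS2 alone (1.39, adjusted p = 0.026 in limma-voom) but not against SCAB1 alone (1.45, adjusted p = 0.0643). The remaining one in the table, PAPP2C, had 1.02 CPM at most. No source used here states how reads of similar genes were divided.

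**Figure D5:**
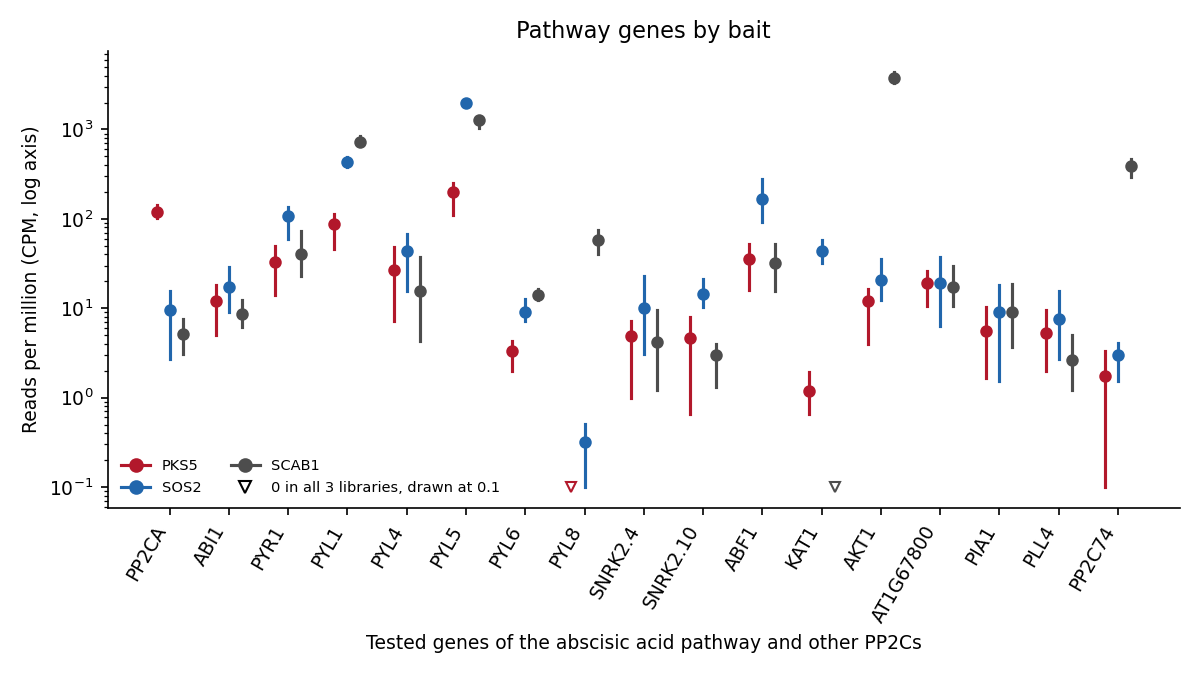
Level (CPM, log axis) of the tested abscisic acid pathway genes and other type 2C phosphatases with PKS5, SOS2 and SCAB1. Points are means and lines run from the lowest to the highest of 3 libraries, with open triangles for genes at 0 in all 3. Of the genes drawn, PP2CA is the one highest with PKS5 without overlap, while PYL1, PYL5 and PYL6 are lowest with PKS5. KAT1, ABF1 and SNRK2.10 are highest with SOS2, and AKT1, PYL8 and PP2C74 are highest with SCAB1. Of these, KAT1 and SNRK2.10 passed the filter only with the SOS2 libraries, and PYL8 and PP2C74 only with the SCAB1 libraries.

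The genes of the baits themselves were also in the table. PKS5 as a prey gene had 1747 ± 162 CPM with PKS5, against 684 ± 251 CPM with SOS2 and 1195 ± 215 CPM with SCAB1, and it was higher with PKS5 than with SOS2 (1.79, SE 0.64, adjusted p = 0.0344 in limma-voom), which relative log expression factors did not call (adjusted p = 0.0555). On distinct reads its sign turned (-0.10, adjusted p = 0.844 in limma-voom). The gene SCAB1 had 0.160 ± 0.276 CPM with PKS5 and 1.69 ± 1.25 CPM with SOS2, against 57.5 ± 22.8 CPM with SCAB1. The gene SOS2 was not tested and had 6.66 CPM at most, in SOS2 at 2 h.

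The 5 tested genes whose levels were most like those of PP2CA had Pearson correlations of 0.98 to 0.99 with it over the 9 libraries, on log2(CPM + 0.5). They were AT5G42420, ARA7, DET2, LTPG2 and AT1G22270. ARA7 is a small GTPase of endosomes and DET2 a reductase of brassinosteroid synthesis. DET2 had 568 ± 285 CPM with PKS5, against 11.8 ± 9.96 CPM with SOS2 and 5.24 ± 4.56 CPM with SCAB1. AT5G42420, at 0.99 the nearest, had 156 ± 53.5 CPM with PKS5, against 5.93 ± 3.94 CPM with SOS2 and 2.14 ± 2.07 CPM with SCAB1.

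The 5 nearest to ABI1 were AT4G13180, AT1G55450, MYBL2, STR18 and AT3G28940, with correlations of 0.99. AT4G13180 had 21.7 ± 11.2 CPM with PKS5, against 29.2 ± 18.9 CPM with SOS2 and 14.7 ± 6.60 CPM with SCAB1. MYBL2, a repressor of anthocyanin synthesis, had 5.22 ± 2.51 CPM with PKS5, against 7.29 ± 4.41 CPM with SOS2 and 3.72 ± 1.55 CPM with SCAB1. PP2CA and ABI1 had a correlation of 0.21 with each other. All of these correlations share library totals and composition and are given with no test.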

How the data were processed

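Per the file headers, the authors deposited 2 whole-number counts for each gene and library, all reads and unique reads, without normalization. Empty cells carry a mark that was read as 0, and because of it the unit is recorded as other. CASAVA, cutadapt 1.18, HISAT2 and the build TAIR10 appear in the submitters' processing notes, which give no steps. Symbols were looked up in RefSeq (TAIR10.1), where 10201 of 10224 identifiers were found. No coordinates or sequences were taken.

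Genes with about 10 reads at the median library in 3 libraries, and 15 in all, were tested. This left 3811 genes with 98.6 to 99.8% of the reads. limma-voom (limma 3.58.1, R 4.3.3) was fitted to all 9 libraries with bait as the term, recomputed TMM factors (30% of log ratios and 5% of levels trimmed) and robust variances. It was tested on simulated data. Benjamini-Hochberg adjustment ran over all genes tested, with calls at an adjusted p below 0.05. Exact permutation tests used scipy 1.17.1. No library was a copy of another by reads, since chi-square per degree of freedom was at least 17.2 over all 36 pairs. Genes with more distinct reads than reads numbered 1429 in the column left out and 0 in the other 8 libraries.

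The genes named are PP2CA and ABI1, the tested genes of the pathway lists and the most frequent untested one of each list, and the 5 genes nearest to each phosphatase by correlation. The members and the lists were chosen with earlier results of these data known. Alternatives were other scaling factors, other filters and offsets, limma-trend, distinct reads, the library number, which is the recovery time, as a block, no 0 h libraries, and leaving out each library.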

Additional observations from a re-analysis of the deposited data

How the results depend on the processing

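PP2CA stayed higher with PKS5 than with the mean of SOS2 and SCAB1, than with SOS2 and than with SCAB1 under 18 of 19 alternatives each, the exception being distinct reads (0.72, 0.86 and 0.57 on the log2 scale, adjusted p = 0.288, 0.19 and 0.639 in limma-voom). Leaving out each library gave 3.92 to 4.79, 3.81 to 4.71 and 4.04 to 4.91. With the library number as a replicate block it was 4.31, 4.2 and 4.42 (adjusted p = 1.60e-11, 3.13e-10 and 5.61e-10). The block changed no call of either phosphatase and moved no count of calls by over 1.5 times. The library number is the recovery time for every bait, so this block is a term for recovery time. Beyond it the labels tie no libraries of a number, which correlated over 0.1 in 3 of 9 pairs and best with their own number in 9 of 18 cases.

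In the permutation test of PP2CA, distinct reads gave 0.97 (exact p = 0.179) and leaving out a library 3.94 to 4.40. For its share the values were 15.8 and 53.3 to 57.4 percentage points. Without a PKS5 library no exact p can go below 0.0714. ABI1 was called under none of its alternatives, and it was not tested with at least 100 reads. Its sign turned for PKS5 against the mean with library size alone (-0.12), distinct reads (-0.0434) or without a library (-0.0148 to 0.26). For PKS5 against SOS2 it turned with relative log expression factors (0.0322), without genes above 5% of a library (0.19), with distinct reads (0.0633), without 0 h (0.20) or without a library (-0.25 to 0.18). Against SCAB1 it turned with distinct reads (-0.15) or without a library (-0.0284 to 0.45). For SOS2 against SCAB1 it turned with distinct reads (-0.21), without 0 h (-0.0789) or without a library (-0.15 to 0.55). In its permutation test it turned without genes above 5% of a library (0.59) or without 1 library (-0.45 to 0.44). PP2CA turned between SOS2 and SCAB1 with at least 100 reads (-0.42), distinct reads (-0.30), without 0 h (-0.36) or without a library (-0.39 to 0.44).

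Recovery turned sign with library size alone (-0.60 for PP2CA and -0.95 for ABI1), without genes above 5% (-0.40 and -0.78) and with distinct reads (-0.33 and -0.43). It then called 1199, 934 and 0 genes, 26 with at least 100 reads, and 0 to 43 without 1 library. PKS5 against the mean called 678 genes with library size alone, 575 without genes above 5% and 341 with distinct reads, against 1054. Distinct reads called 574 for PKS5 against SOS2, 347 against SCAB1 and 633 for SOS2 against SCAB1, where at least 100 reads left 874. In the settings with library size alone, without genes above 5% and with at least 100 reads, limma drew the variance from all genes together. The causes were not tested. Low read numbers limit ABI1 everywhere and PP2CA with SOS2 and SCAB1. With PKS5 the reads of PP2CA rest on only 5, 2 and 2 distinct reads.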
